A study of Homo sapiens with 12 samples.

Results

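Interferon-stimulated genes are the genes that cells switch on when an interferon binds its receptor. The 39 genes described here were listed by name and did not have to change in these cells to be listed. The list was nevertheless chosen with earlier results of these data known. Probe sets were assigned by the platform's gene symbol, with older aliases read as the current one, so that RIGI stands for the gene formerly called DDX58. Of the 39 genes, 37 had probe sets of their own, 59 in all, among 11963 genes and 22283 probe sets of the HG-U133A array. IFI30 and STAT2 had none that named them alone, and 2 probe sets that name a member together with another gene were not used. For 11 of the 37 genes several probe sets were read.

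RNA was measured in 4 groups of 3 arrays: A549 ρ° cells, 143BTK− ρ° cells, and the ρ+ parental cells of each line, which keep their mitochondrial DNA (mtDNA). A549 is an epithelial line from a human lung adenocarcinoma, and 143BTK− is a human osteosarcoma line without thymidine kinase. Both ρ° lines were made with 50 ng/ml ethidium bromide for 3 weeks, and surviving cells were pooled without picking clones. Each ρ° line is therefore a mixed population. The paper describes 3 separate RNA extractions per group and no repeat of the depletion, so spread between arrays does not measure spread between depletions. Only ρ° cells had been given ethidium bromide, so its effect cannot be told apart from that of mtDNA loss. All 4 groups were grown in medium with 10% serum, 1 mM pyruvate and 50 µg/ml uridine, and no interferon treatment is described for any of them. Changes of signal are given as ρ° relative to ρ+ on the log2 scale. Each line was normalized on its own, so levels cannot be compared between the lines, and a lower signal from a culture cannot tell fewer expressing cells from less RNA in each cell.

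Type I interferons (IFN-α, IFN-β) act through the receptor chains IFNAR1 and IFNAR2 and the kinases JAK1 and TYK2, which activate STAT2. Together with IRF9, STAT2 is part of a complex that binds the interferon-stimulated response element (ISRE) in target promoters. Type II interferon (IFN-γ) acts through IFNGR1 and IFNGR2 and a promoter element called the gamma-activated site (GAS). Many of the targets hinder viruses, and others cut and carry peptides for antigen presentation. Cells also start this program without a virus when RNA or DNA of their own, mtDNA included, reaches sensors in the cytosol.

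Promoter windows of the members were read from RefSeq (GRCh38.p14), from 250 bases before to 50 after each gene start. Entries were found for 33 of the 39 genes, and the ones not found are IFIT2, IFITM2, IRF7, PML, TRIM22 and USP18. The core of the ISRE was searched on both strands as GAAA, NN and GAAA in a row, where N is any base, and was present in 21 of 33 members (63.6%), against 4.38% of the 27305 genes of the table. The GAS was searched as TTCNNNGAA, which reads the same on both strands, and was present in 10 of 33 members (30.3%), against 9.38% of all genes. Both motifs were found in 6 members, and they overlapped each other in BST2, IFI27, IFITM1 and MX1. These shares describe the letters of the windows and do not show that a factor binds them.

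The stretches below were chosen from members that hold a motif, each with 10 bases of its promoter on either side of the motif. They are written 5′ to 3′ on the strand of the gene, and the motif is in capitals. A core that lies on the opposite strand reads as TTTC, NN and TTTC in a row.
PSMB8, ISRE core at its second start, chr6:32844032-32844061, minus strand: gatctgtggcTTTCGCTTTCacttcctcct
PSMB8, GAS at its second start, chr6:32844094-32844122, minus strand: aactgtccttTTCTCGGAAaaggcagggg
TAP1, ISRE core, chr6:32853819-32853848, minus strand: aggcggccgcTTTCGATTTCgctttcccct
IFI35, GAS, chr17:43006752-43006780, plus strand: aggcagggatTTCACGGAAatgaaagtgg
IRF9, GAS, chr14:24161192-24161220, plus strand: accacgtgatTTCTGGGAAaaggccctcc
IFIT5, ISRE core, chr10:89414513-89414542, plus strand: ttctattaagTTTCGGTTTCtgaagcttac
ISG15, ISRE core, chr1:1013380-1013409, plus strand: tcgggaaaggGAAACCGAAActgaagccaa
Among these genes, IFI35 and IRF9 held a GAS and no ISRE core in the windows read, IFIT5 and ISG15 held an ISRE core and no GAS, and PSMB8 and TAP1 held both. OAS1, PSMB9, RIGI, SP100 and UBE2L6, which are given array by array, held no ISRE core in the windows read. An element outside these windows, or with other letters, would not be found by this search.

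**Figure D1:**
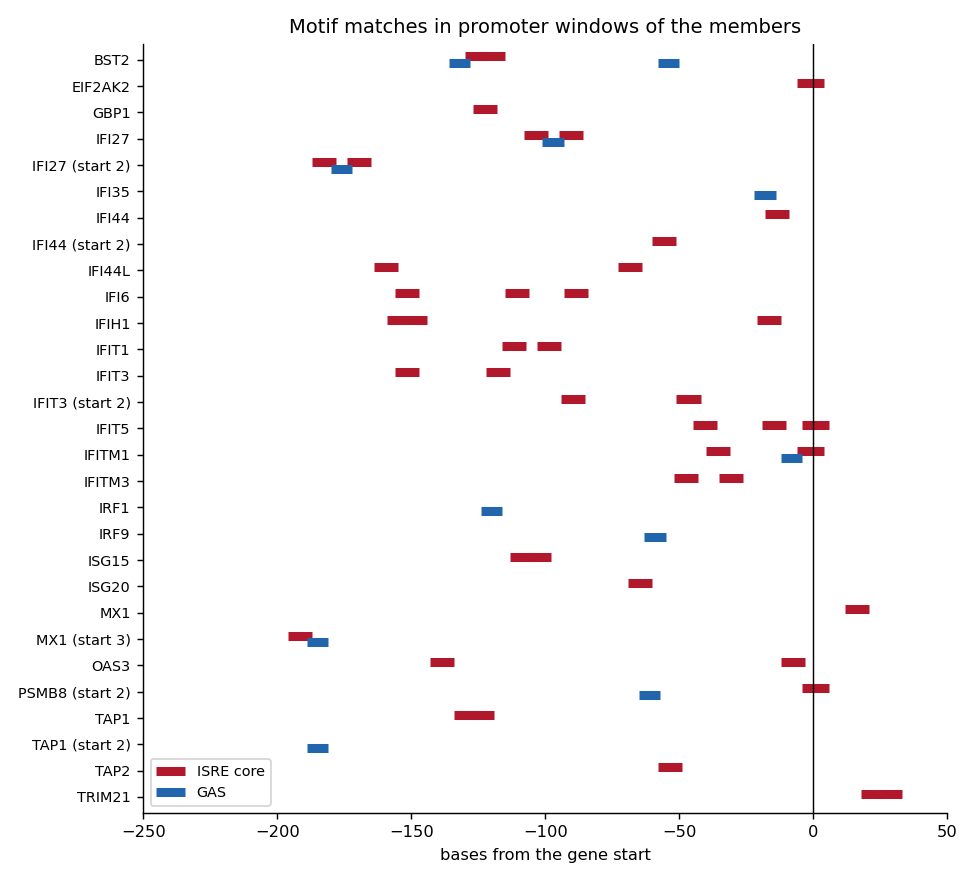
Positions of the ISRE core (red) and the GAS (blue) in promoter windows of members, with the distance from the gene start in bases on the x axis and 1 row per window. Most ISRE cores lie upstream of the start line at 0, a few cross it, and those of MX1 and TRIM21 in the windows from their first starts lie after it.

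A probe set was tested in a line when its mean signal was among the higher ones of that line (at least 19.1 in A549 and 12.6 in 143BTK−). This left 29 members (37 probe sets) in A549, 26 members (36 probe sets) in 143BTK− and 25 members (32 probe sets) in both. A gene was represented by its tested probe set with the highest mean. BST2, GBP1, IFI27, IFI44, IFI44L, IFIH1 and MX1 were tested in neither line, and the mean signals of their probe sets were 0.467 to 19.0 in A549 ρ° cells and 0.7 to 18.6 in A549 ρ+ cells. In 143BTK− the same genes had means of 1.10 to 14.0 in ρ° cells and 1.37 to 27.2 in ρ+ cells. These genes include classical antiviral targets, such as the GTPase MX1 and the RNA sensor IFIH1, and their changes were not tested at these signals.

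Replicate arrays of a group correlated at 0.900 to 0.965 (Pearson's r over the probe sets). The epithelial marker list of A549 (7 genes) summed to signals of 4934 to 8648 on the ρ° arrays and 12729 to 15411 on the ρ+ arrays, and the keratin KRT19 averaged 3.53 in ρ° cells against 408.7 in ρ+ cells. EPCAM was near background in A549, at 4.77 in ρ° cells and 8.6 in ρ+ cells. The mesenchymal list of 143BTK− (8 genes) summed to 7699 to 8669 on the ρ° arrays and 6994 to 8027 on the ρ+ arrays. VIM made up most of these sums, averaging 6710 in ρ° and 6366 in ρ+ cells. CDH11 averaged 36.0 in ρ° cells against 145.6 in ρ+ cells. COL6A3 (470.0 against 256.1) and CDH2 (229.8 against 135.7) were higher in ρ° cells. The epithelial list summed to 2984 to 5025 on the 143BTK− ρ° arrays and 4199 to 5145 on the ρ+ arrays, mostly through KRT18. Leukocyte markers (8 of 10 listed were on the array) summed to 107.7 to 160.4 in A549 ρ° cells and 122.3 to 196.2 in A549 ρ+ cells, and to 33.6 to 99.9 in 143BTK− ρ° cells and 66.3 to 84.7 in 143BTK− ρ+ cells. Of these, PTPRC and LYZ were under 7 in every group mean. CD14 averaged 38.7 in A549 ρ° cells and 59.9 in A549 ρ+ cells. CD3E averaged 33.0 on ρ° and 33.7 on ρ+ arrays in A549, and 23.0 on ρ° and 24.0 on ρ+ arrays in 143BTK−. The epithelial sum of A549 was lower on every ρ° array than on any ρ+ array. In 143BTK− only group means of single mesenchymal genes are given, and 0 of the 8374 genes tested there passed the adjusted test. The part of these markers in the results of the lines was not tested.

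In A549, OAS1 and PSMB8 passed the adjusted test as lower in ρ° cells, and no member passed it as higher. These were 2 of 29 members, where 11.3% of the 8035 genes tested in A549 passed at an adjusted p under 0.05, 5.24% higher and 6.01% lower. That count of all genes, 904, ran from 275 without the ρ° A array to 1239 without ρ+ C. The median change of the members was 0.12, with 15 of 29 above 0, and that of all genes was -0.03. Before adjustment 5 members were higher and 2 lower at p under 0.05, where 13.2% and 14.8% of all genes were. The 3 ρ° arrays lay above the 3 ρ+ arrays in 5 members and below them in 5, against 15.2% and 17.6% of all genes.

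OAS1 makes the short oligoadenylates that switch on the antiviral ribonuclease RNase L. Its signal was 39.1, 43.3 and 53.7 on the A549 ρ° arrays and 93.2, 121.5 and 114.6 on the ρ+ arrays. The groups did not overlap, and ρ° cells were 2.43-fold lower (log2 change -1.28, SE 0.25, limma adjusted p = 0.0109). A second OAS1 probe set read 55.3, 15.0 and 51.5 in ρ° cells against 120.4, 102.7 and 110.3 in ρ+ cells and also passed (-1.67, SE 0.44, adjusted p = 0.0384). OAS3, the neighbour of OAS1 on chromosome 12 and an enzyme of the same kind, went the other way without passing (0.37, SE 0.26, adjusted p = 0.407), with overlapping groups. OAS1 was too low to be tested in 143BTK−, at 3.3, 19.4 and 12.6 in ρ° cells and 7.1, 7.5 and 12.7 in ρ+ cells.

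PSMB8 is a catalytic subunit of the immunoproteasome, the form of the proteasome that interferon favours. It read 80.2, 62.9 and 75.1 on the A549 ρ° arrays and 147.7, 134.9 and 144.8 on the ρ+ arrays. All ρ° arrays were below all ρ+ arrays, with ρ° cells 1.97-fold lower (-0.98, SE 0.22, adjusted p = 0.0191). PSMB9, the subunit encoded beside it in the MHC region of chromosome 6, read 90.5, 93.4 and 93.8 in ρ° cells and 115.1, 118.1 and 157.6 in ρ+ cells. Its groups did not overlap either, but the change did not pass (-0.48, SE 0.22, adjusted p = 0.192). TAP1 and TAP2, the subunits of the peptide transporter from the same region, had overlapping groups and changes of -0.28 and -0.06, so the 4 tested antigen-processing members had negative changes and 1 of them passed.

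Neither of these calls held without certain arrays. With the ρ° A or the ρ+ B array left out, OAS1 had an adjusted p of 0.0563 or 0.0560 and PSMB8 one of 0.0568 or 0.0656, and PSMB8 also lost its call without ρ° B (0.0706) or ρ+ A (0.0537). The second OAS1 probe set lost its call without ρ° A (0.0563), ρ+ A (0.0898) or ρ+ B (0.102), and without ρ° B its log2 change was -1.06 (0.0478). Over all alternatives the adjusted p was 0.00851 to 0.0563 for OAS1 and 0.0126 to 0.0706 for PSMB8, and both passed with the median change of their chromosome in A549 subtracted (0.09 for chromosome 12 and 0.14 for chromosome 6).

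**Figure D2:**
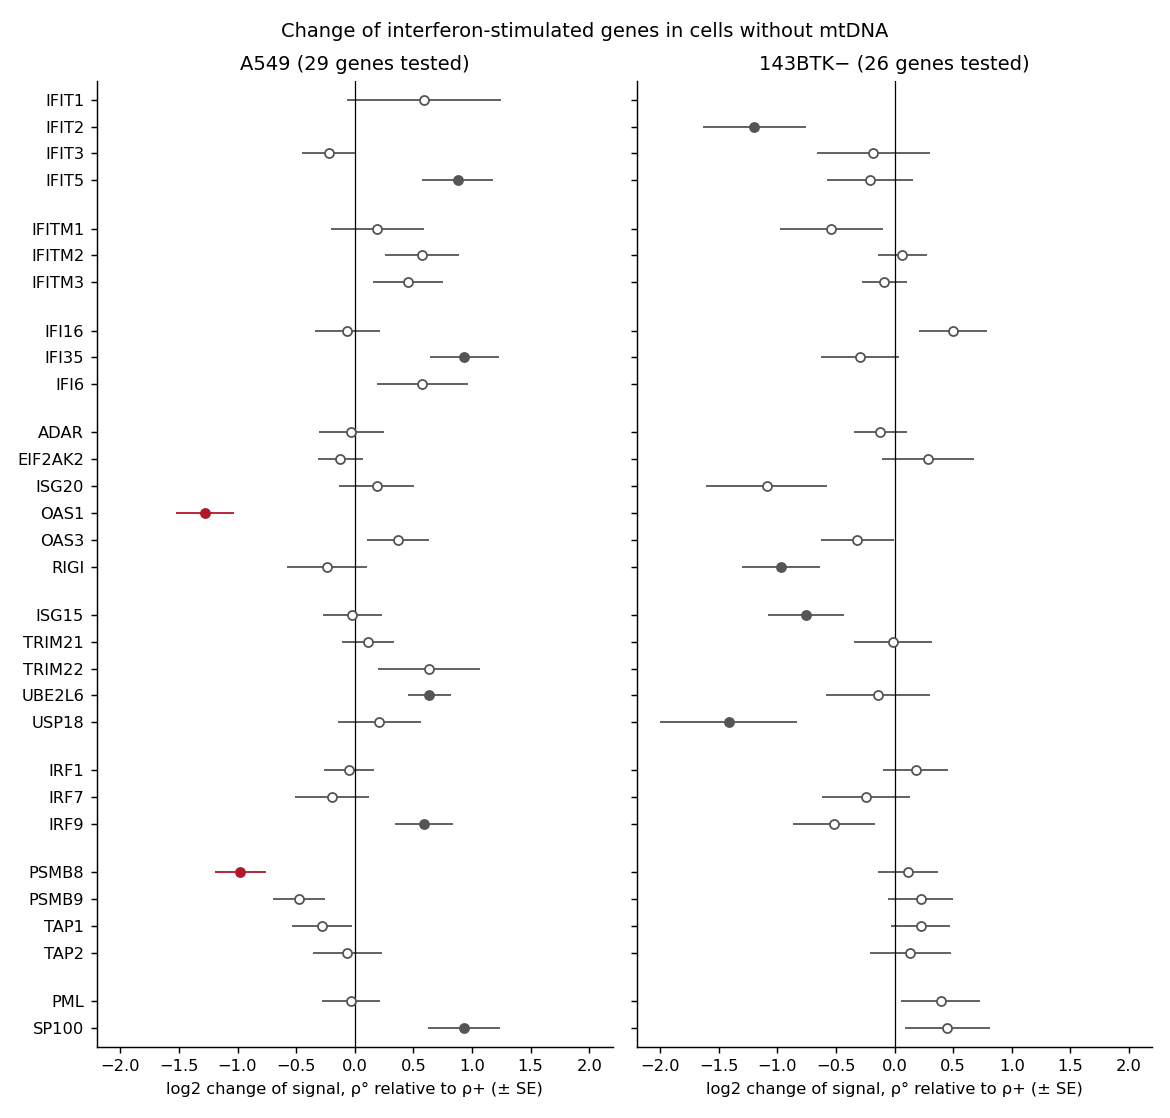
Log2 change of signal in ρ° relative to ρ+ cells (x axis, bars ± SE) for the representing probe set of each tested member, grouped by role, in A549 (left) and 143BTK− (right). Red marks an adjusted p under 0.05, filled grey an unadjusted p under 0.05 and open circles the rest, and the only red points are OAS1 and PSMB8 in A549.

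The 5 members on the higher side in A549 with groups that did not overlap were UBE2L6, IFI35, SP100, IFIT5 and IRF9, and none passed the adjusted test. UBE2L6 is the conjugating enzyme that attaches the ubiquitin-like protein ISG15 to its targets. It read 431.6, 450.8 and 357.1 in ρ° cells and 282.9, 267.0 and 245.4 in ρ+ cells, which is 1.55-fold (0.64, SE 0.18) and just outside the threshold (adjusted p = 0.0510). ISG15 itself had overlapping groups, at 98.2, 184.4 and 131.5 in ρ° cells and 140.7, 137.3 and 128.6 in ρ+ cells (-0.02, SE 0.25). USP18, which removes ISG15 and dampens the receptor, had a change of 0.21 with overlapping groups.

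IFI35, a cytosolic protein that partners with NMI, read 155.9, 165.2 and 274.0 in A549 ρ° cells and 74.7, 98.9 and 136.8 in ρ+ cells (0.93, SE 0.30, adjusted p = 0.0696). SP100, a building block of PML nuclear bodies, read 104.9, 105.5 and 95.3 in ρ° cells and 33.3, 62.1 and 73.3 in ρ+ cells (0.93, SE 0.31, adjusted p = 0.0790). A second tested SP100 probe set overlapped between the groups (0.52, SE 0.34), and PML, the organizer of these bodies, had a change of -0.03 (SE 0.25). The ρ+ C array was the highest of its group for IFI35 and SP100 and also for IFIT5.

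IFIT5 binds RNA with a triphosphate end. It was even in A549 ρ° cells, at 104.3, 106.0 and 109.7, against 41.6, 51.7 and 91.1 in ρ+ cells (0.88, SE 0.30, adjusted p = 0.0889), while its second probe set overlapped (0.47, SE 0.32). IRF9, the DNA-binding part of the complex that reads the ISRE, was 136.6, 104.7 and 93.8 in ρ° cells and 87.1, 66.4 and 68.0 in ρ+ cells (0.59, SE 0.24, adjusted p = 0.149). With the ρ+ C array left out, IFI35, SP100 and IFIT5 passed (adjusted p = 0.0229, 0.0286 and 0.0108), and without the ρ° C array UBE2L6 (0.0478) and IFITM2 did. Over all alternatives the adjusted p was 0.0229 to 0.184 for IFI35, 0.0286 to 0.206 for SP100, 0.0108 to 0.236 for IFIT5 and 0.0350 to 0.170 for UBE2L6. With the median change of the chromosome subtracted, UBE2L6 had a change of 0.45 (limma adjusted p = 0.159), IFI35 0.84 and IFIT5 0.82. IRF9 then had one of 0.52 and SP100 one of 1.00, and none of them passed.

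**Figure D3:**
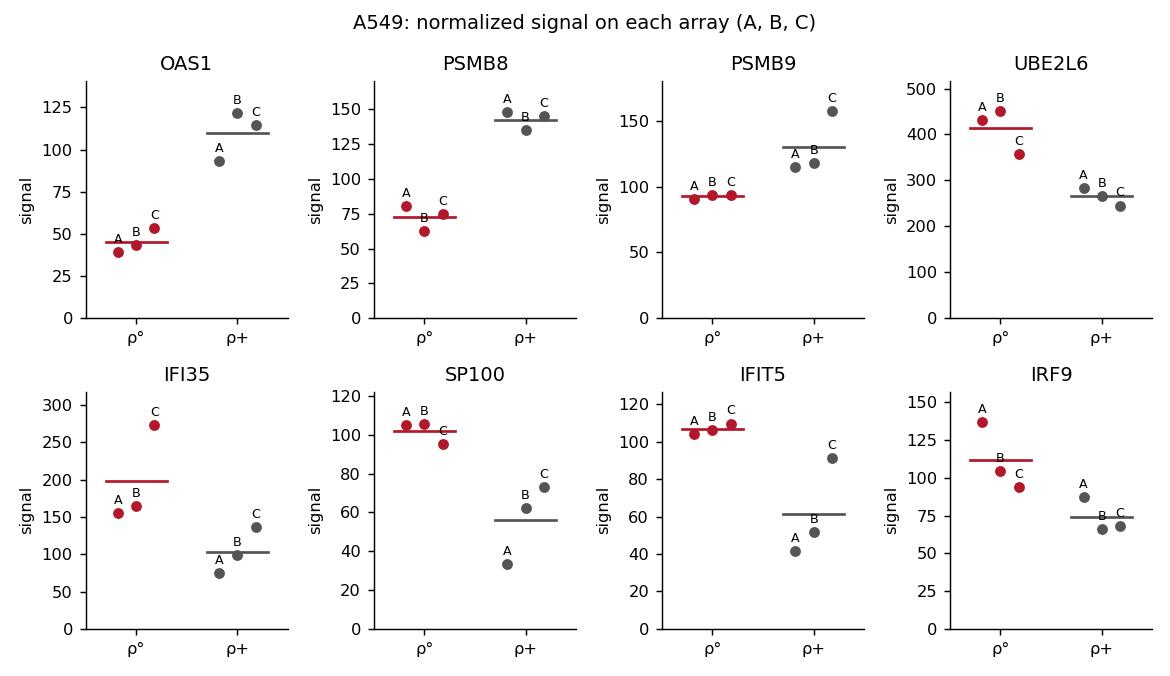
Normalized signal (y axis, from 0) of 8 members on each A549 array, with ρ° in red on the left and ρ+ in grey on the right, letters naming the replicate and lines giving group means. The ρ° and ρ+ arrays do not overlap in any panel, and only OAS1 and PSMB8 passed the adjusted test.

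The other members tested in A549 had unadjusted p-values above 0.05. IFITM2 and IFITM3, membrane proteins that hold back the entry of viruses, had changes of 0.58 (SE 0.32) and 0.46 (SE 0.30) with overlapping groups. IFITM2 read 1511.7, 1297.7 and 568.7 in ρ° cells and 635.4, 651.8 and 811.6 in ρ+ cells, and IFITM3 likewise had its lowest signal of the line on the ρ° C array, so this array stood against the other ρ° arrays. Without it the change of IFITM2 was 1.01 and passed (adjusted p = 0.0133). The IFITM probe sets are of a class that can pick up related transcripts, and these paralogs may not be fully separated. IFIT1, which binds viral RNA without a proper cap, spanned 13.4 to 54.4 in ρ° cells and 11.3 to 50.5 in ρ+ cells, and its SE of 0.65 was the widest of the members in A549.

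TRIM22, an antiviral ubiquitin ligase, and IFI6, a small membrane protein, had changes of 0.63 (SE 0.44) and 0.58 (SE 0.39) in A549 with overlapping groups. IFITM1, TRIM21 (a receptor for antibody-bound virus) and IFI16 had changes of 0.19, 0.12 and -0.06. Several members of the RNA-sensing group and the transcription factors also lay close to 0. ADAR, which edits double-stranded RNA, had a change of -0.03, EIF2AK2 (the kinase PKR) -0.12, RIGI -0.23, ISG20 (an exonuclease) 0.19, IRF1 -0.05 and IRF7 -0.19. Their SEs were 0.19 to 0.34. The ρ° arrays of EIF2AK2 (142.6 to 157.5) nonetheless all lay below the ρ+ arrays (157.6 to 170.8), as did those of IFIT3 (56.8 to 67.5 against 68.2 to 76.9).

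In 143BTK− no member passed the adjusted test, and neither did any of the 8374 genes tested (0.0%) in limma. At an unadjusted p under 0.05, 4 of 26 members were lower in ρ° cells and 0 were higher, where 4.87% and 3.83% of all genes were. These 4 were RIGI, IFIT2, USP18 and ISG15. By the representing probe sets, the ρ° arrays lay below the ρ+ arrays in 3 members and above them in 0, against 7.80% and 7.46% of all genes. Other tested probe sets lay above in PML (changes of 0.44 and 0.45), IFI16 (0.32) and EIF2AK2. The median change of the members was -0.13, with 10 of 26 above 0, and the median of all genes was -0.002.

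RIGI senses RNA with a triphosphate end in the cytosol. It read 15.9, 20.2 and 24.4 on the 143BTK− ρ° arrays and 44.1, 43.4 and 30.7 on the ρ+ arrays (-0.97, SE 0.33, unadjusted p = 0.0167, adjusted p = 0.535). IFIT2, an RNA-binding member of the IFIT family, read 13.0, 12.7 and 6.7 in ρ° cells and 32.7, 20.1 and 20.2 in ρ+ cells (unadjusted p = 0.0235, adjusted p = 0.554). All ρ° arrays of both genes lay below all ρ+ arrays, and the ρ° mean of IFIT2 (10.8) was under the lowest mean signal tested, so no size is given for its difference.

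ISG15 read 113.9, 140.0 and 72.4 in 143BTK− ρ° cells and 241.8, 162.2 and 141.2 in ρ+ cells (-0.75, SE 0.33, unadjusted p = 0.0455, adjusted p = 0.582). The groups nearly met, at 140.0 on ρ° B and 141.2 on ρ+ C. USP18 read 7.9, 24.7 and 5.0 in ρ° cells and 33.0, 21.6 and 26.0 in ρ+ cells and overlapped through the ρ° B array (unadjusted p = 0.0381, adjusted p = 0.576). Its ρ° mean (12.5) was just under the lowest mean signal tested, so no size is given. ISG20 had a change of -1.09 (SE 0.52) with overlapping groups, and OAS3 had one of -0.32 (SE 0.31).

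The ρ+ A array of 143BTK− was the highest of the 6 arrays for RIGI, IFIT2, ISG15 and USP18. Over all 37 genes it was the highest for 10, the other 6 being ADAR, IFI44, IFI44L, IFIT1, IFIT3 and IRF7, a count made after these values were seen. IFI44 and IFIT1, which were not tested in this line, had their only signals above 30 there (56.3 for an IFI44 probe set and 33.9 for IFIT1). The ρ+ C and ρ° B arrays were the highest for 8 genes each. Without the ρ+ A array the unadjusted p was 0.0664 for RIGI, 0.116 for IFIT2, 0.173 for ISG15 and 0.115 for USP18, and without ρ° B that of USP18 was 0.00146 (adjusted p = 0.359). With the median change of their chromosome subtracted, the changes of RIGI and ISG15 shrank to -0.79 and -0.60, while that of IFIT2 was slightly larger.

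EIF2AK2 was the one member with a probe set on the higher side of 143BTK− at an unadjusted p under 0.05. That probe set, of the class that can pick up related transcripts, read 225.1, 258.1 and 111.7 in ρ° cells and 48.4, 108.7 and 88.0 in ρ+ cells (1.27, SE 0.40, unadjusted p = 0.0117, adjusted p = 0.516). The probe set that represents the gene overlapped, at 114.5, 196.3 and 179.8 in ρ° cells and 115.0, 83.4 and 232.0 in ρ+ cells (0.29, SE 0.39). The 2 probe sets of EIF2AK2 therefore gave the same direction and different sizes in this line.

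**Figure D4:**
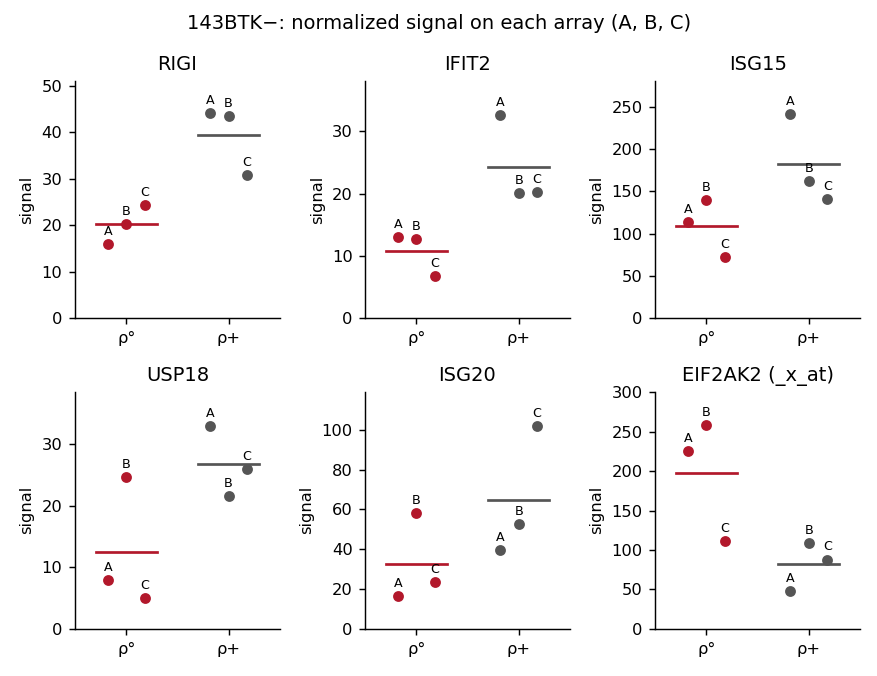
Normalized signal (y axis, from 0) of 6 probe sets on each 143BTK− array, with ρ° in red on the left and ρ+ in grey on the right, letters naming the replicate and lines giving group means. RIGI, IFIT2 and ISG15 are lower on every ρ° array, USP18 and ISG20 overlap through ρ° B, and the second EIF2AK2 probe set is higher on every ρ° array, with no adjusted p under 0.05.

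The probe sets that represent the 4 antigen-processing members, negative in A549, had positive changes in 143BTK−, none of which passed. PSMB8 read 139.6, 153.7 and 132.1 in ρ° cells and 146.7, 148.5 and 102.4 in ρ+ cells (0.12, SE 0.25). PSMB9, TAP1 and TAP2 had changes of 0.22, 0.22 and 0.14, all with overlapping groups, while a second TAP2 probe set had one of -0.29 (SE 0.28), and of -0.31 in A549. PML had a change of 0.39 and SP100 one of 0.45 (SE 0.36), with -0.09 (SE 0.43) for the second SP100 probe set. IFI16, a sensor of DNA, was 328.9, 361.5 and 207.4 in ρ° cells and 161.6, 254.6 and 212.5 in ρ+ cells (0.50, SE 0.29).

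Among the IFITM members of 143BTK−, IFITM2 had a change of 0.07 (SE 0.21), IFITM3 one of -0.09 (SE 0.19) and IFITM1 one of -0.54 (SE 0.44). IRF1, IRF7 and IRF9 had changes of 0.18, -0.24 and -0.52, each with overlapping groups. The remaining members, ADAR, IFIT3, IFIT5, IFI35, TRIM21 and UBE2L6, had changes from -0.29 to -0.01 with overlapping groups.

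Over both lines 0 of 25 members passed the test of the mean change, where 3.74% of 7490 genes did. SP100 had a mean change of 0.69 (SE 0.25, adjusted p = 0.134), RIGI one of -0.60 (SE 0.23, adjusted p = 0.15) and PSMB8 one of -0.43 (SE 0.16, adjusted p = 0.141), and these 3 were the members with an unadjusted p under 0.05 (1 higher and 2 lower, where 9.79% and 11.3% of all genes were). The exact two-sided permutation p within lines was 0.025 for SP100, 0.025 for RIGI and 0.065 for PSMB8, with 0.005 the smallest that 3 against 3 arrays in 2 lines can give and 0.1 the smallest within a line. The second SP100 probe set had a mean change of 0.21 (SE 0.29) and an exact permutation p of 0.525.

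The test of the difference, A549 change minus 143BTK− change, also passed in 0 of 25 members, where 2.10% of all genes passed. PSMB8 had a difference of -1.09 (SE 0.32, adjusted p = 0.0886). IFI35 had one of 1.23 (SE 0.46, adjusted p = 0.179), IRF9 1.11 (SE 0.43, adjusted p = 0.197) and IFIT5 1.08 (SE 0.50, adjusted p = 0.277), and USP18, for which no size is given, had an adjusted p of 0.255. These 5 were the members with an unadjusted p under 0.05, 4 above 0 and 1 below, where 8.81% and 8.58% of all genes were. The median difference of the members was 0.48, and that of all genes was -0.01.

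By sign alone, 10 of the 25 members (40.0%) had a positive change in A549 and a negative one in 143BTK−, and 8 (32.0%) the reverse. Among all genes these shares were 22.6% and 24.4%. Positive changes in both lines were found in 2 members, IFITM2 and SP100 (its second probe set was negative in 143BTK−), and negative changes in both in 5, where 25.3% and 27.6% of all genes had them. Many of these changes were smaller than their SE, and no member passed the test of the difference.

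**Figure D5:**
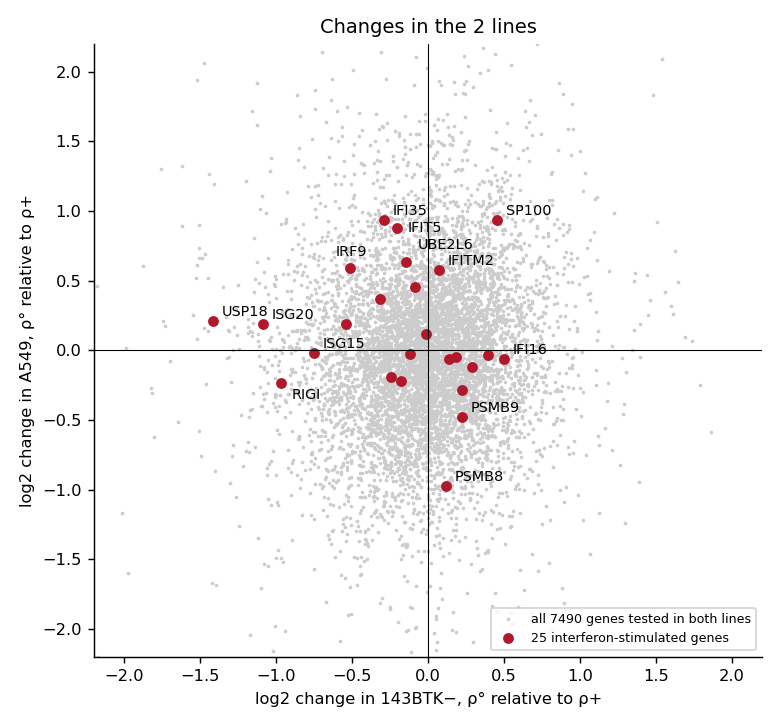
Log2 change in 143BTK− (x axis) against that in A549 (y axis), ρ° relative to ρ+, for the 25 members tested in both lines (red) and all 7490 genes tested in both (grey, of which 56 lie outside the frame at ±2.2). PSMB8 lies low in A549 and near 0 in 143BTK−, RIGI, USP18 and ISG20 lie to the left, and SP100 lies at the upper right.

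Members with an ISRE core in a promoter window had a median change of 0.15 in A549 (8 of 14 positive), against -0.04 in those without (4 of 10). In 143BTK− the medians were -0.13 (4 of 12 positive) and -0.12 (4 of 9). The 5 tested members without a window had medians of 0.21 in A549 (3 positive) and -0.24 in 143BTK− (2 positive).

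Genes of the interferon pathway were read from a list of ligands, receptor chains, kinases, regulators and sensors. In A549, 28 of them were tested, 1 was higher and 0 were lower at an adjusted p under 0.05, where 5.24% and 6.01% of all genes were, and in 143BTK− 0 of 29 passed. The one that rose in A549 was IFNGR2, a chain of the IFN-γ receptor, at 355.4 ± 32.8 in ρ° cells and 194.9 ± 9.17 in ρ+ cells (SD, n = 3 each, log2 change 0.86, SE 0.18, limma adjusted p = 0.0157). In 143BTK− it had a change of -0.28, at 298.0 ± 24.1 in ρ° cells and a wide 397.4 ± 219.4 in ρ+ cells. IFNGR1, the other chain, had a change of -0.62 in A549 (adjusted p = 0.0916) and its second probe set one of 0.00. Adaptors, sensors and their kinases made up 14 of the tested pathway genes in A549 and 15 in 143BTK−, and none passed. At an unadjusted limma p under 0.05, 2 of them were higher and 2 lower in A549, where 13.2% and 14.8% of all genes were. None were in 143BTK−.

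Among the ligands 14 of 16 were on the array and only IFNA17 was tested, with changes of -0.13 in A549 and 0.15 in 143BTK−. IFNB1, the interferon that most cells make first, had mean signals of 2.2 in A549 ρ° cells and 1.47 in A549 ρ+ cells, and of 1.07 in 143BTK− ρ° cells and 1.43 in 143BTK− ρ+ cells, all near the floor. IFNAR2 had changes of 0.16 and -0.26 in A549 and 143BTK−, and IFNAR1 was tested in neither. IL10RB, a chain of the receptor of type III interferons, had changes of -0.65 (adjusted p = 0.118) and -0.13. JAK1 had changes of 0.28 and -0.07, TYK2 of 0.71 (adjusted p = 0.173) and 0.47, and STAT3 of -0.35 and -0.10 in the same order of lines. JAK2 was tested in 143BTK− only (-1.56, unadjusted p = 0.0439, adjusted p = 0.582).

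PTPN11, a phosphatase that restrains interferon signalling, was represented by a probe set that did not pass in A549 (0.68, SE 0.22, adjusted p = 0.0793). A second PTPN11 probe set rose to 211.0 ± 32.3 in A549 ρ° cells, against 47.2 ± 16.3 in ρ+ cells (SD, n = 3 each, 2.22, SE 0.30, limma adjusted p = 0.00207), and another to 104.9 ± 44.5 in ρ° cells, against 23.0 ± 3.15 in ρ+ cells (2.10, SE 0.36, adjusted p = 0.00597). In 143BTK− these had changes of 0.25 and -0.03. The probe sets of this gene thus disagreed in size and call.

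A further list held 53 interferon-induced genes that are no members, of which 30 were tested in A549 and 29 in 143BTK−. In A549 2 were higher and 2 lower at an adjusted p under 0.05, where 5.24% and 6.01% of all genes were, and in 143BTK− 0 passed. LGALS3BP, a secreted glycoprotein, rose to 2601 ± 313 in A549 ρ° cells, against 1221 ± 219 in ρ+ cells (SD, n = 3 each, 1.10, SE 0.17, limma adjusted p = 0.00377). B2M, the light chain of MHC class I, rose to 3093 ± 351 in ρ° cells, against 1976 ± 84.0 in ρ+ cells (0.64, SE 0.13, adjusted p = 0.0157), so the light chain was higher in the same cells in which PSMB8 was lower. TRIM14, an adaptor in antiviral signalling, fell to 45.5 ± 8.31 in ρ° cells, against 89.6 ± 8.48 in ρ+ cells (-0.99, SE 0.25, adjusted p = 0.0314). ZC3HAV1, which binds viral RNA for decay, fell to 166.7 ± 16.3 in ρ° cells, against 299.2 ± 50.5 in ρ+ cells (-0.83, SE 0.21, adjusted p = 0.0284). The median change of the tested probe sets in A549 was -0.31 on chromosome 9 (TRIM14) and -0.28 on chromosome 7 (ZC3HAV1). It was 0.10 on chromosome 17 (LGALS3BP) and -0.09 on chromosome 15 (B2M), and its part in these changes was not tested.

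In the mean change over both lines, B2M (0.52, adjusted p = 0.0166) and LGALS3BP (0.78, adjusted p = 0.0332) were higher and TRIM14 was lower (-0.92, adjusted p = 0.0174), 3 of the 26 genes of this list tested in both lines. Of all 7490 genes tested in both lines, 3.74% passed this test in limma. TRIM14 had a change of -0.84 in 143BTK− and B2M one of 0.40 (unadjusted p = 0.0153 and 0.0336), neither of which passed there. LGALS3BP had overlapping groups in 143BTK−, with means of 43.0 in ρ° cells and 32.6 in ρ+ cells (0.47, SE 0.34, limma unadjusted p = 0.201). The list as a whole had a median change of -0.07 in A549 and -0.03 in 143BTK−, against -0.03 and -0.002 for all genes. CEACAM1, an adhesion molecule, had a representing probe set that did not pass (-0.34, SE 0.33), while others of its probe sets were lower at adjusted p = 0.00151 and 0.0389, with means of 13.8 and 19.5 in ρ° cells and 84.9 and 46.3 in ρ+ cells.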

How the data were processed

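Signals of 12 HG-U133A arrays, 3 for each line and mtDNA state, were read from the deposited table. The authors computed an intensity per probe set with MAS5 and applied quantile normalization within each line (6 arrays), and the deposited intensity values, from 0.1 to 14101.7, were taken to the log2 scale here. The authors dropped probe sets called Absent throughout a line. In place of these calls the same number of probe sets with the highest mean log2 signal was kept, less 68 control probe sets, leaving 13064 (58.6%) in A549, 13977 (62.7%) in 143BTK− and 12108 in both.

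The test was limma 3.58.1, run in R 4.3.3 (lmFit, eBayes with an intensity trend, two-sided), with Benjamini-Hochberg adjustment over all kept probe sets and a threshold of 0.05, in each line and, over 12 arrays in 4 groups, for the mean change and the difference between lines. limma replaced the power law global error model of the study's methods, which was fitted on data not used here. The fits were tested on simulated data with known changes. Exact permutations moved arrays within lines. Gene names came from the annotation of the platform (19071 with a single gene, 19057 of them matched to RefSeq), and 0 were annotated to mtDNA.

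The members and the lists were chosen with earlier results of these data known. Array by array values are given for members that passed in any fit, or that had an unadjusted p under 0.05 with groups that do not overlap, and the others by role. USP18, ISG20, IFI16, PSMB9 and IFITM2 were given array values, or plotted, outside this rule. Pathway genes are named where they passed or are ligands, receptor chains, or kinases and STATs of the receptors. Adaptors, sensors and their kinases are given as counts, and PTPN11, IFIT1 and IFI44 were named after their values were seen. Alternatives were other filters, 16 or 64 added before log2, a prior without the trend, a block for the replicate letter, quantile normalization over 12 arrays, the median of a gene's probe sets, chromosome medians subtracted, and arrays left out. The sequence of a further motif match and a further gene of the pathway list are not reported here. Plots used matplotlib 3.10.9 under Python 3.11.15.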

Additional observations from a re-analysis of the deposited data

Results flagged for a closer look

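IFIT2 was flagged because its arrays moved in opposite directions in the lines. In A549 it read 13.9, 29.5 and 24.7 in ρ° cells, all above the 8.1, 9.9 and 5.8 of ρ+ cells, and in 143BTK− all ρ° arrays lay below the ρ+ arrays. The log2 change in A549 minus that in 143BTK− was 2.68 as computed, but a group mean was under the lowest mean signal tested in each line, so this is not a size of the difference. The difference was not tested at the filter used, and without a filter 0 members passed the test of the difference.

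TRIM5, a restriction factor of the wider list, was flagged because its change differed between the lines in the limma fit (2.12, adjusted p = 0.0414). It averaged 32.8 in A549 ρ° cells and 17.6 in A549 ρ+ cells, which is under the lowest mean signal tested there, and 32.1 in 143BTK− ρ° cells and 69.3 in 143BTK− ρ+ cells, so the 2.12 is not given as a size either. The third PTPN11 probe set was flagged for the same reason (2.13, adjusted p = 0.0312).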

How the results depend on the processing

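The count of members that passed in A549 was 2, and 2 or 3 under the alternatives that kept all arrays. UBE2L6 joined OAS1 and PSMB8 with 16 or 64 added, with quantile normalization over 12 arrays and with the median of a gene's probe sets, and at a mean signal of at least 100, where OAS1 was not tested, IFI35, PSMB8 and UBE2L6 passed. With each array left out in turn the count ran from 0 (without ρ° A or ρ+ B) to 5 (without ρ+ C), with 1 without ρ° B or ρ+ A and 4 without ρ° C (IFITM2 and UBE2L6 joined), and with both ρ+ C arrays left out it was 5. The count was 0 in 143BTK−, for the mean change and for the difference under every alternative run. OAS1, PSMB8, UBE2L6, IFI35, SP100, IFIT5 and IRF9 in A549 and RIGI, IFIT2 and ISG15 in 143BTK− kept their direction under every alternative run on them.

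The labels do not say whether the replicate letters pair the arrays, and the main test did not pair them. Deviations of arrays with the same letter correlated at 0.11, 0.05 and 0.08 in A549, above the -0.11 to 0.02 of different letters. In 143BTK− they correlated at 0.37, -0.12 and -0.03 for the same letter and at -0.47 to 0.40 for different letters. These values do not settle whether the arrays are paired. With the letter as a block 3 members passed in A549 (IFI35, adjusted p = 0.0274, joined) and 0 in the other comparisons.

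Without the intensity trend the counts over all genes were 475 in A549 against 904, 147 in the mean change against 280 and 92 in the difference against 157, and with chromosome medians subtracted 174 and 103 in these last comparisons. With each array left out in turn they ran from 275 to 1239 in A549 (390 without ρ° B, 597 without ρ+ A and 322 without ρ+ B), from 88 (without A549 ρ+ B) to 360 (without 143BTK− ρ+ C) in the mean change and from 40 (without A549 ρ° A) to 219 (without A549 ρ+ C) in the difference. With the block 1 gene passed in 143BTK−. With 3 arrays a group the SEs of the tested members were 0.18 to 0.65 in A549 and 0.19 to 0.59 in 143BTK−. Changes well above their SE could still miss the threshold, as UBE2L6 (0.64, SE 0.18) and IFI35 (0.93, SE 0.30) did in A549. Members with signals near the floor were not tested.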
